A study of Homo sapiens with 12 samples.

Results

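Replicate sets 1 and 3 of a breast cancer cell line experiment were compared gene by gene. Each set is made of the 4 libraries that carry the same replicate number, 1 library per group, so that 8 of the 12 libraries of the series enter the comparison, 4 with number 1 and 4 with number 3. The cells were MDA-MB-468, a human triple-negative breast cancer line, that is, one without hormone receptors or HER2 amplification. For 10 days they received EPZ5676 (pinometostat) at 0.5 µM, which blocks DOT1L, the enzyme that methylates histone H3 in gene bodies, or the solvent DMSO as control, and were then sorted by flow cytometry into ALDH1+ and ALDH1- cells. The 4 groups are EPZ5676 ALDH1+, EPZ5676 ALDH1-, DMSO ALDH1+ and DMSO ALDH1-. All cells come from the same line and were grown in DMEM with serum, and no group was left without solvent or inhibitor.

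The labels call the replicates biological and do not say whether libraries with the same number shared a culture, a sort or a library preparation. Because treatment came before sorting, the question asked here is how far a set as a whole moved, in all 4 groups alike, when the treatment and the sorted population are held fixed. Each set was made 1 time, so there is 1 set against 1 set. The p-values below therefore set the shift of a gene against its spread over the 4 groups. The fit draws that spread toward the spread of genes at large, so a small p can go with uneven ratios. No p-value here measures how much 2 sets of the same kind would differ by chance. What sets the 2 apart (culture, passage, sort or library preparation) cannot be told apart in this design. An exact test on the 4 ratios of a single gene could not go below a two-sided p of 0.125.

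Total counts were 24348594 to 28230029 in the 4 libraries of set 1 and 24856576 to 58004508 in those of set 3, where DMSO ALDH1+ was the deepest. Levels are given in CPM, counts scaled to 1e+06 per library with TMM factors, and fold changes as log2 of set 1 over set 3. Markers of the line were present in both sets, with a summed level of 17700 to 20800 CPM in set 1 and 16400 to 18700 CPM in set 3. The largest member of that sum was EGFR, at 6908 to 11430 CPM in set 1 and 4603 to 8450 CPM in set 3. Of the 11 such markers tested, 3 had a shift above 0 (median -0.076). EGFR and KRT17 were called higher in set 1 and KRT14 lower. PGR, the progesterone receptor, was at 0 in all 8 libraries. ESR1, the estrogen receptor, was at 6.84 to 10.1 CPM in set 1 and 7.85 to 9.97 CPM in set 3. Leukocyte markers summed to 8.41 to 13.5 CPM in set 1 and 8.52 to 12.3 CPM in set 3, with FCGR3A, MS4A1, LYZ and NKG7 at 0. Most of that sum was CSF1R, at 5.75 to 11.4 CPM in set 1 and 4.76 to 10 CPM in set 3. CD14 was at 0.819 to 2.58 CPM in set 1 and 1.59 to 3.61 CPM in set 3, and PTPRC was below 1 CPM in both sets. Fibroblast markers summed to 16.2 to 28.4 CPM in set 1 and 11.7 to 24.9 CPM in set 3, with LUM and DCN at 0. Most of that sum was COL1A1, at 13.3 to 24.2 CPM in set 1 and 8.77 to 20.7 CPM in set 3. COL1A1 was itself called higher in set 1 (log2 fold change 0.35, SE 0.093, adjusted p = 0.0195 in edgeR). Endothelial markers summed to 4.44 to 10.9 CPM in set 1 and 5.01 to 9.24 CPM in set 3.

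The libraries carried a shift that the replicate number marked in every group. After the mean of each group had been removed, the first principal component of 10187 genes held 47% of the remaining variance. The libraries of set 1 lay at 8.44 to 10.2 on it, those of set 3 at -12.2 to -7.06, and those of set 2 between them at -1.57 to 3.75. Over all 12 libraries, treatment took 60.5% of the variance of log2 CPM and the sorted population 6.6%, each with 1 degree of freedom. The replicate number took 13% with 2 degrees of freedom, which is 6.5% per degree. The number by treatment and number by population terms took 5.65% and 5.34%, beside a remainder of 5.63%, each with 2 degrees of freedom. With the replicate number as a term, the common biological coefficient of variation between libraries of a group was 6.57%, against 9.58% without it.

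**Figure D1:**
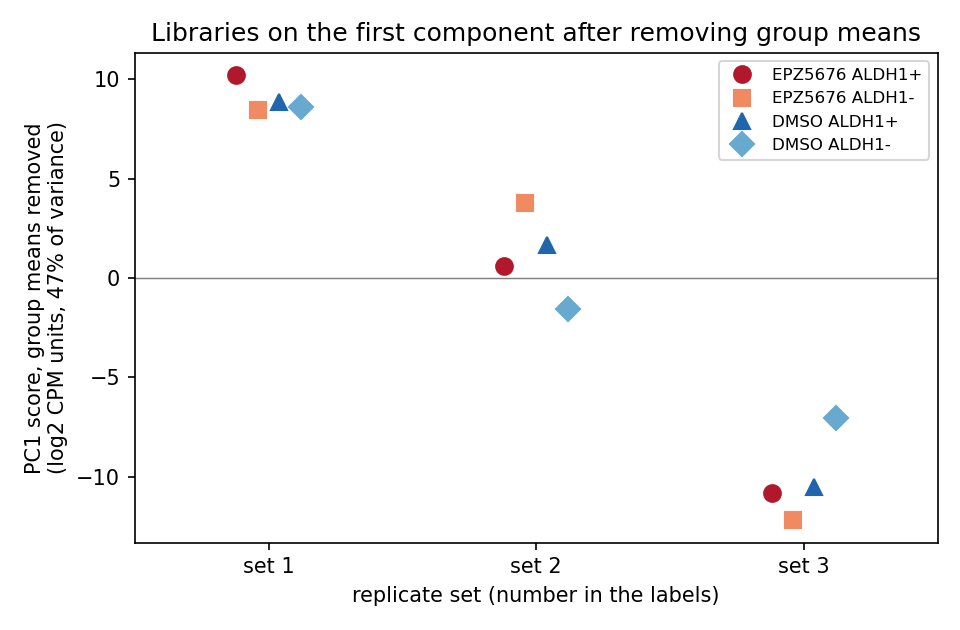
Score of each of the 12 libraries on the first principal component of log2 CPM after the group means were removed (vertical axis, log2 CPM units), by replicate set (horizontal axis) and group (colour and shape). The 4 libraries of set 1 sit between 8.44 and 10.2 and the 4 of set 3 between -12.2 and -7.06.

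In the fit of the 8 libraries, 2266 of 16345 genes tested passed an adjusted p of 0.05, which is 13.9% of the genes. Of these, 1188 (7.27% of the genes tested) were higher in set 1 and 1078 (6.60%) were lower. Most of the differences were small. The median size of a called change was 0.354 on the log2 scale, and 92 called genes were at least 2-fold higher and 40 at least 2-fold lower in set 1. The median over all genes tested was -0.003. For 5623 genes (34.4%) all 4 group ratios had the same sign, 17.7% of the genes with 4 ratios above 0 and 16.7% with 4 below 0. Across the 10187 genes averaging 3 or more in log2 CPM, the ratios of set 1 over set 3 in 2 different groups had Pearson correlations of 0.366 to 0.727. The highest was between both EPZ5676 populations and the lowest between both DMSO populations. Genes are not independent replicates. The 2 ratios of a pair share no library, but each ratio enters several pairs, so the correlations are not independent of one another. The number of called genes rested most on 1 group, since it was 880 and 882 without the set 3 and the set 1 library of EPZ5676 ALDH1-, and 1447 and 1431 without those of EPZ5676 ALDH1+.

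Several gene classes recur below. Immediate early genes, among them FOS, FOSB and EGR1, are transcribed within minutes of serum, growth factors or stress by factors already present in the cell, and their RNAs are short-lived. NF-kB is held in the cytoplasm by IkB proteins until a signal releases it, and then switches on cytokines and its own inhibitors. YAP and TEAD drive cytoskeleton-linked genes such as CCN1, and E2F and MuvB complexes time the genes of DNA replication and mitosis. The EGF receptor is amplified and highly expressed in MDA-MB-468 and feeds several of these classes.

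The called members of the immediate early and YAP lists and most of those of the NF-kB list were higher in set 1, and the called members of the DNA replication and mitosis lists were lower. Of 24 immediate early genes, 19 were called higher in set 1 and 0 lower, with a median of 0.78. Of 22 NF-kB and inflammatory genes, 16 were higher and 2 lower (median 0.46). Of 17 YAP and TEAD targets, 10 were higher and 0 lower (median 0.31). Among 27 genes of DNA replication and S phase, 0 were higher and 17 lower (median -0.27), and among 27 genes of G2/M and mitosis, 0 were higher and 17 lower (median -0.26). These counts stand beside 7.27% higher and 6.60% lower among all genes tested.

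Promoters of 5 genes that moved are shown because they hold the letters of response elements of these classes within 250 bases before to 50 after the gene start. They are RefSeq windows on GRCh38.p14, 5′ to 3′ on the strand of the gene, with the motif named for that gene in capitals on either strand. CGA and DUSP1 hold the cAMP response element TGACGTCA, TNFAIP3 and CXCL8 the NF-kB letters GGNNTTTCC, CXCL8 also the AP-1 letters TGANTCA, and CDK1 the letters TTTGAA of the cell cycle genes homology region (CHR). Left in lower case are 1 match of GGNNTTTCC in the CGA window and 1 match of TTTGAA in the DUSP1 window.
CGA (chr6:87095057-87095356, minus strand): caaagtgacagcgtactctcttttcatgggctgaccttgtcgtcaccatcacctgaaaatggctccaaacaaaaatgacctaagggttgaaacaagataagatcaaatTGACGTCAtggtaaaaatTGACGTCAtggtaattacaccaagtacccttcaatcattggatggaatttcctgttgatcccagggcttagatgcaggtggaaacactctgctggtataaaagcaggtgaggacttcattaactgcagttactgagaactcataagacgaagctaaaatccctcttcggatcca
DUSP1 (chr5:172771146-172771445, minus strand): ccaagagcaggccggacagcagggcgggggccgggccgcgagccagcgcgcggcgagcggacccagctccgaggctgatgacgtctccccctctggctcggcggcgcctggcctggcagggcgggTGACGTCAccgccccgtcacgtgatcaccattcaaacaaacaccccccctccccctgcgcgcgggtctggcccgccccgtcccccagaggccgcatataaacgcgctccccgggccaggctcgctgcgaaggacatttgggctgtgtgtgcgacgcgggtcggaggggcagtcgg
TNFAIP3 (chr6:137867009-137867308, plus strand): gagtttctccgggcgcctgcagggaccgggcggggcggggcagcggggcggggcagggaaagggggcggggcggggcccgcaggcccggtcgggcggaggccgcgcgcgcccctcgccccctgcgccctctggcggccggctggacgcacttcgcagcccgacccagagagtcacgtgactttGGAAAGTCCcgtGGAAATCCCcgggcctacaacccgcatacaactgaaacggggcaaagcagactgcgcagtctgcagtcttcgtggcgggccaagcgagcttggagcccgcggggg
CXCL8 (chr4:73740319-73740618, plus strand): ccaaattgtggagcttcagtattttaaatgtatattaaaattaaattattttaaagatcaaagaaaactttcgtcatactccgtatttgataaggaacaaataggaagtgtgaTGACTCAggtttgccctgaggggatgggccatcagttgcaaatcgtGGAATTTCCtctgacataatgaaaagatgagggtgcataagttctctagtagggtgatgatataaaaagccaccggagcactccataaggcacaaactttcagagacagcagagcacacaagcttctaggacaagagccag
CDK1 (chr10:60778228-60778527, plus strand): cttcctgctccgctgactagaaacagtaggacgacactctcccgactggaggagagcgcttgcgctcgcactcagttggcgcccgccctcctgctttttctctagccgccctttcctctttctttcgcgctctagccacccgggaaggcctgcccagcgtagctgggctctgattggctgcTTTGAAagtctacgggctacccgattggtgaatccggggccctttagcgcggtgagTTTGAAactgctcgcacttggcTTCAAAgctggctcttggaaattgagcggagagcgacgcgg
Over the 27305 gene symbols with such windows, 2.25% held TGACGTCA, 7.61% GGNNTTTCC, 9.37% TGANTCA and 18.2% TTTGAA on either strand. The motifs in capitals do not overlap one another, and the CDK1 window is 1 of 2 listed for that gene. Of 27 G2/M and mitosis genes, 23 had a window, and 15 of these (65.2%) held TTTGAA. Of 27 DNA replication and S phase genes, 23 had a window, and 2 of these (8.7%) held it. These are matches of letters only. A smaller part of the immediate early list (17 of 24 genes) and of the NF-kB list (17 of 22) had a window, so counts only are given. Among the 17 immediate early genes, 2 held TGACGTCA, 0 held TGANTCA and 1 held GGNNTTTCC. Among the 17 NF-kB genes, 14 held GGNNTTTCC, 2 held TGANTCA and 1 held TGACGTCA. Of the 11369 tested genes with a window, 416 held TGACGTCA. It was found in 35 of 883 such genes called higher in set 1 and in 44 of 788 called lower.

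Among the immediate early genes, the AP-1 subunit FOSB was one of the 12 largest rises. In EPZ5676 cells FOSB had 128 and 156 CPM (ALDH1+ and ALDH1-) in set 1, against 40.3 and 36.8 CPM in set 3. In DMSO cells FOSB had 235 and 248 CPM in set 1, against 60.6 and 76.1 CPM in set 3. All 4 libraries of set 1 were above all 4 of set 3 (log2 fold change 1.85, SE 0.073, adjusted p = 1.57e-10). The libraries of set 2 had 58.3 and 70.9 CPM of FOSB in EPZ5676 cells and 95.3 and 122 CPM in DMSO cells. Set 2 therefore lay between the other sets in all 4 groups. FOS, another AP-1 subunit, lay in the same order. In EPZ5676 cells FOS had 104 and 136 CPM (ALDH1+ and ALDH1-) in set 1, against 45.9 and 45.1 CPM in set 3. In DMSO cells FOS had 217 and 218 CPM in set 1, against 81.0 and 73.0 CPM in set 3. The 4 libraries of set 1 were above the 4 of set 3 (log2 fold change 1.44, SE 0.071, adjusted p = 2.14e-09).

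The MAP kinase phosphatase DUSP1, whose promoter with its cAMP response element is shown above, was higher as well. In EPZ5676 cells DUSP1 had 73.4 and 88.6 CPM (ALDH1+ and ALDH1-) in set 1, against 32.4 and 32.7 CPM in set 3. In DMSO cells DUSP1 had 79.0 and 93.1 CPM in set 1, against 27.3 and 29.6 CPM in set 3. The groups of DUSP1 values did not overlap between the sets (log2 fold change 1.45, SE 0.076, adjusted p = 2.9e-09). The stress-induced transcription factor ATF3 was at 31.6 to 61.9 CPM in set 1 and 7.89 to 19.9 CPM in set 3, without overlap (log2 fold change 1.67, SE 0.085, adjusted p = 2.57e-09). ARC, the activity-regulated cytoskeletal gene, was also among the 12 largest rises at 1.67 (SE 0.22, adjusted p = 0.000149), at 0.983 to 6.59 CPM in set 1 and 0.585 to 1.51 CPM in set 3, with overlap between groups but a higher value in set 1 within each group. The other called members were FOSL1, JUN, EGR1, EGR2, EGR3, IER2, DUSP5, NR4A1, NR4A2, KLF2, KLF4, KLF6, ZFP36 and SRF, with log2 fold changes of 0.26 to 2.02. JUNB, JUND, IER3, DUSP6 and MYC did not pass. MYC was at 159 to 232 CPM in set 1 and 152 to 223 CPM in set 3 (log2 fold change 0.077, SE 0.056, adjusted p = 0.394).

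The group medians of the immediate early list lay close together. The median over the 24 genes was 0.69 in EPZ5676 ALDH1+, 0.78 in EPZ5676 ALDH1-, 0.74 in DMSO ALDH1+ and 0.76 in DMSO ALDH1-, and in all 19 called genes the 4 ratios had the same sign. In the fit of all 12 libraries, set 2 lay between the sets for all 19. When any 1 library was left out, 16 to 20 members were called higher. The call itself favours a shift of the same sign in all groups. Among all 1188 genes called higher, the 4 ratios were above 0 in 1117, and set 2 lay between in 1049.

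**Figure D2:**
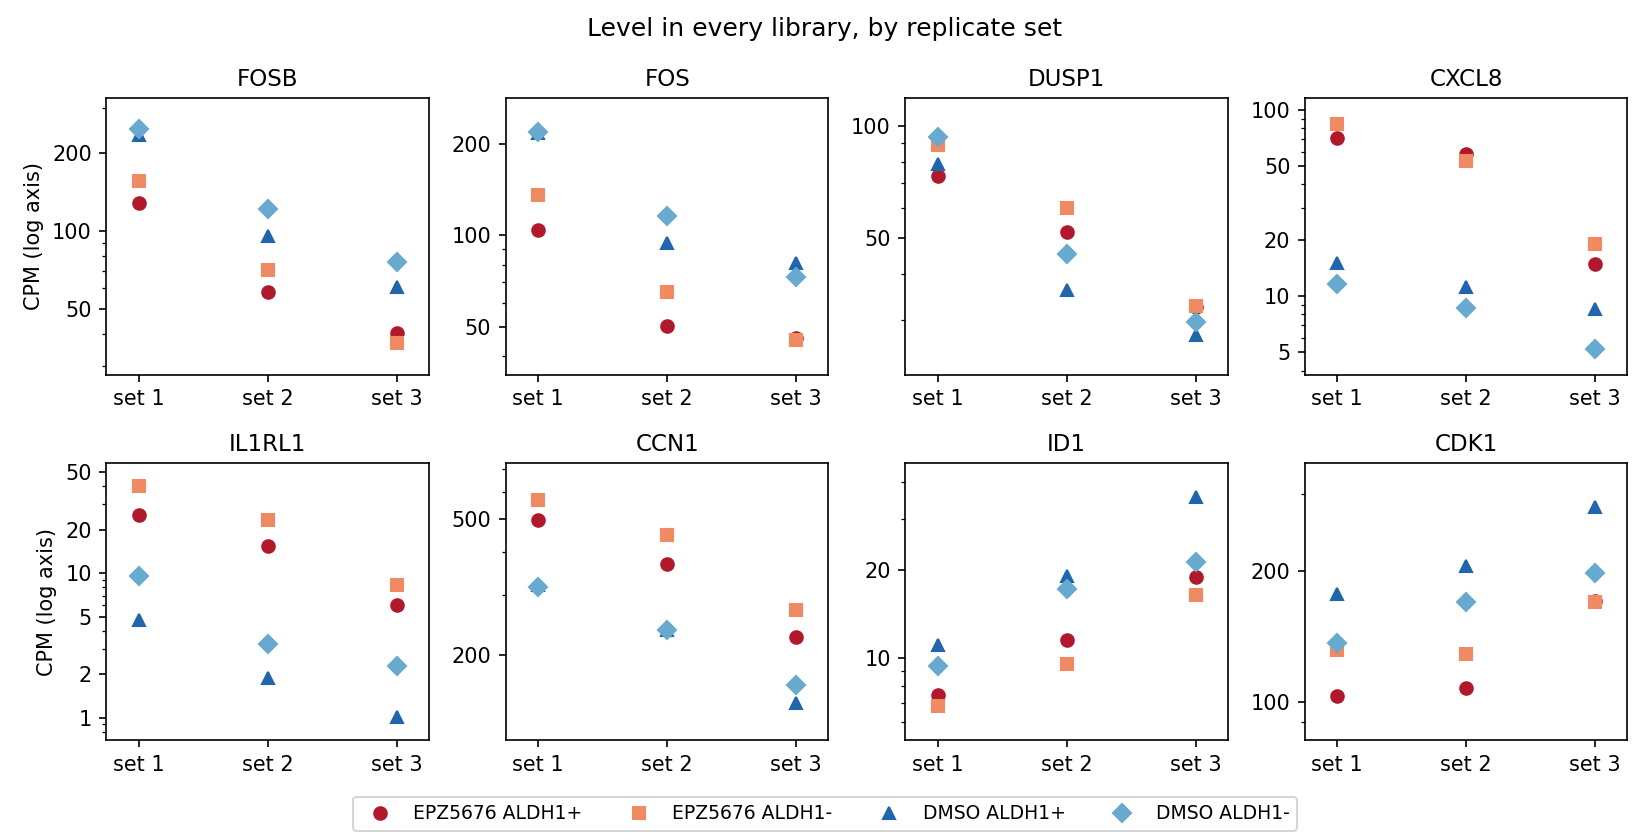
Level of 8 genes in each of the 12 libraries (vertical axis, CPM on a log scale), by replicate set (horizontal axis) and group (colour and shape). FOSB, FOS, DUSP1, CXCL8, IL1RL1 and CCN1 are higher in set 1 than in set 3 in all 4 groups, and ID1 and CDK1 lower.

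NF-kB and inflammatory genes were mostly higher in set 1, and their levels also differed between treatments. In EPZ5676 cells the neutrophil chemokine CXCL8 had 71.3 and 84.6 CPM (ALDH1+ and ALDH1-) in set 1, against 14.9 and 19.1 CPM in set 3. In DMSO cells the chemokine had 15.2 and 11.7 CPM in set 1, against 8.56 and 5.24 CPM in set 3. Every group of CXCL8 was higher in set 1, but the DMSO libraries of set 1 overlapped the EPZ5676 libraries of set 3 (log2 fold change 1.68, SE 0.17, adjusted p = 1.08e-05). TNFAIP3 encodes A20, which switches NF-kB signalling off. In EPZ5676 cells TNFAIP3 had 176 and 192 CPM (ALDH1+ and ALDH1-) in set 1, against 68.2 and 70.8 CPM in set 3. In DMSO cells TNFAIP3 had 46.9 and 44.3 CPM in set 1, against 13.9 and 20.3 CPM in set 3. Each treatment was higher in set 1 without overlap (log2 fold change 1.43, SE 0.081, adjusted p = 8.38e-09). The cytokine IL6 was at 0.806 to 6.27 CPM in set 1 and 0.337 to 2.38 CPM in set 3 (log2 fold change 1.45, SE 0.18, adjusted p = 6.91e-05). The chemokine CXCL2 was at 2.73 to 4.76 CPM in set 1 and 0.776 to 1.45 CPM in set 3, with no overlap (log2 fold change 1.59, SE 0.20, adjusted p = 8.23e-05). CXCL1, CXCL2 and CXCL3 share sequence, so reads may be split among them. The adhesion molecule ICAM1 was at 46.7 to 110.5 CPM in set 1 and 32.7 to 50.1 CPM in set 3 (log2 fold change 0.76, SE 0.085, adjusted p = 2.27e-05).

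Also called higher were NFKB1, NFKB2 and RELB, which encode subunits of NF-kB, the cytokines TNF, LIF, IL32 and CCL20, the chemokines CXCL1 and CXCL3, the survival factor BIRC3 and the iron-binding LCN2. The 2 members that fell were the complement component C3 and TNFAIP2. NFKBIA, the inhibitor that NF-kB itself induces, did not pass, at a log2 fold change of 0.16 (adjusted p = 0.122). The list's median was 0.68 in EPZ5676 ALDH1+, 0.62 in EPZ5676 ALDH1-, 0.48 in DMSO ALDH1+ and 0.27 in DMSO ALDH1-. Without either EPZ5676 ALDH1- library, 9 of the 22 members were called higher and 1 lower, and 1 was also the number lower without either DMSO ALDH1- library. In EPZ5676 cells alone 14 of the 16 were called higher, and in DMSO cells alone 6. Among all 1188 genes called higher, these counts were 447 and 184, so more calls in EPZ5676 cells were not particular to this list.

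IL1RL1 and CGA, both outside these lists, had the largest rises under the rule that named genes. IL1RL1, the receptor of interleukin 33, was raised in both treatments. In EPZ5676 cells IL1RL1 had 25.3 and 40.1 CPM (ALDH1+ and ALDH1-) in set 1, against 6.01 and 8.3 CPM in set 3. In DMSO cells IL1RL1 had 4.73 and 9.6 CPM in set 1, against 1.01 and 2.29 CPM in set 3. Within each treatment the sets did not overlap (log2 fold change 2.16, SE 0.10, adjusted p = 1.01e-09). CGA encodes the alpha subunit shared by the pituitary and placental glycoprotein hormones. In EPZ5676 cells CGA had 6.06 and 17.1 CPM (ALDH1+ and ALDH1-) in set 1, against 1.65 and 3.1 CPM in set 3. In DMSO cells CGA had 0.947 and 6.59 CPM in set 1, against 0.408 and 0.88 CPM in set 3. Every group was higher in set 1, with log2 fold change 2.23, SE 0.18, adjusted p = 8.1e-07. PRDM1, the transcriptional repressor Blimp-1, was at 8.83 to 34.6 CPM in set 1 and 3.03 to 9.25 CPM in set 3 (log2 fold change 1.70, SE 0.11, adjusted p = 4.99e-08).

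YAP and TEAD targets were called higher in 10 of 17 members and lower in 0. CCN1, a secreted matrix protein, was higher in both treatments. In EPZ5676 cells CCN1 had 497 and 566 CPM (ALDH1+ and ALDH1-) in set 1, against 225 and 270.3 CPM in set 3. In DMSO cells CCN1 had 320.3 and 315 CPM in set 1, against 145 and 163 CPM in set 3. The 4 libraries of set 1 were above the 4 of set 3 (log2 fold change 1.08, SE 0.059, adjusted p = 5.83e-09). ANKRD1, a muscle ankyrin repeat protein, was higher in set 1 within each group (log2 fold change 0.98, SE 0.083, adjusted p = 1.1e-06). F3, tissue factor, was at 474 to 1396 CPM in set 1 and 275 to 784 CPM in set 3 (log2 fold change 0.76, SE 0.066, adjusted p = 1.6e-06), and AMOTL2, a brake on YAP, at 359.6 to 380.1 CPM in set 1 and 212 to 268 CPM in set 3 (log2 fold change 0.55, SE 0.063, adjusted p = 3.05e-05). CCN2, NUAK2, LATS2, FJX1, ARHGEF17 and NT5E were called too. Leaving out any 1 library gave 8 to 12 called members.

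EGFR was higher in set 1, and so were 8 of 16 genes of its ligands and feedback. In EPZ5676 cells the EGF receptor had 10740 and 11430 CPM (ALDH1+ and ALDH1-) in set 1, against 8450 and 7753 CPM in set 3. In DMSO cells the receptor had 6908 and 8706 CPM in set 1, against 4603 and 7310 CPM in set 3. Each group was higher in set 1, with overlap between treatments (log2 fold change 0.44, SE 0.07, adjusted p = 0.000686). None of the 16 was called lower, and their median was 0.30. HBEGF, an EGF receptor ligand, was at 9.36 to 27.8 CPM in set 1 and 5.39 to 14.7 CPM in set 3 (log2 fold change 0.97, SE 0.09, adjusted p = 3.59e-06). The ERK phosphatase DUSP4 was at 156 to 255 CPM in set 1 and 122 to 156 CPM in set 3 (log2 fold change 0.54, SE 0.067, adjusted p = 6.22e-05), and PHLDA1 rose by 0.33 (SE 0.064). The feedback inhibitors ERRFI1, SPRY2, SPRY4 and SPRED2 and the ligand TGFA were the other called members, and the ligands AREG, EREG, BTC and EPGN did not pass. The count was 4 without either EPZ5676 ALDH1- library.

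**Figure D3:**
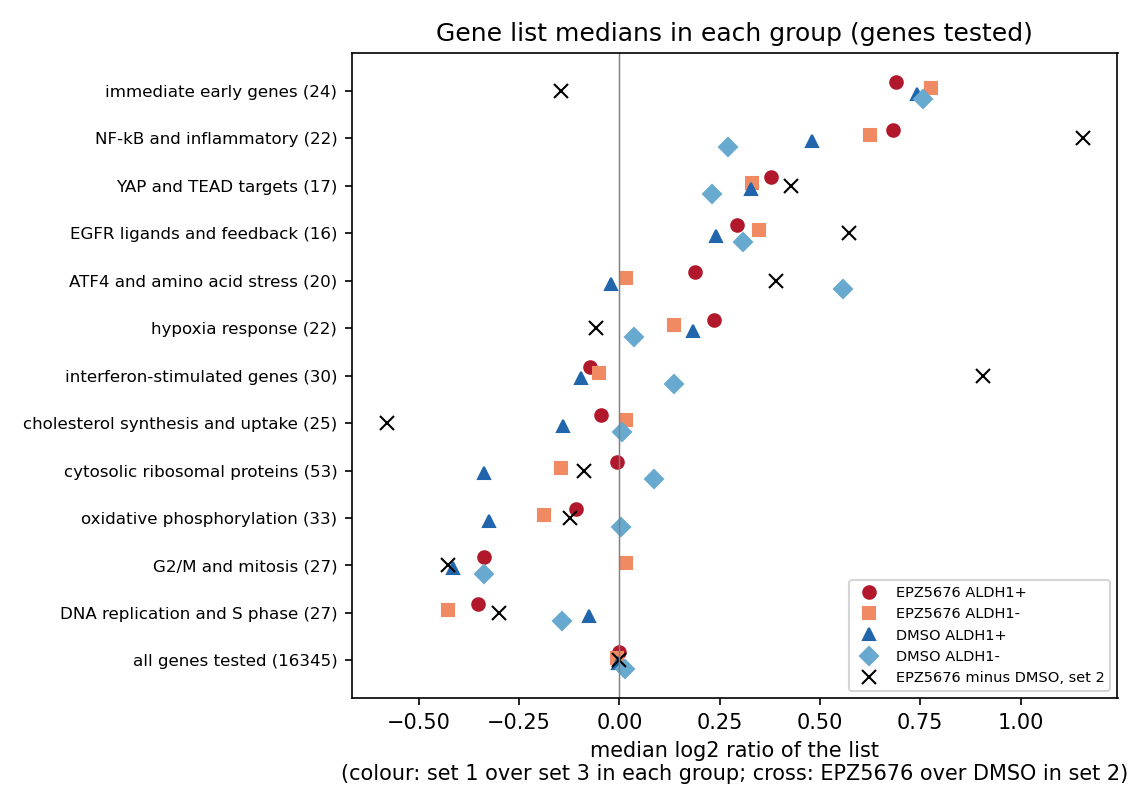
Median log2 ratio of set 1 over set 3 of 12 gene lists and of all genes tested in each group (horizontal axis; colour and shape give the group), with the number of genes tested in brackets and a cross at the median log2 difference of EPZ5676 minus DMSO in set 2. The immediate early genes have medians of 0.69 to 0.78 in the 4 groups and a cross at -0.145.

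Of the G2/M and mitosis genes, 17 of 27 were called lower in set 1. CDK1, the kinase that drives entry into mitosis, showed this in every group. In EPZ5676 cells CDK1 had 103 and 132 CPM (ALDH1+ and ALDH1-) in set 1, against 171 and 169 CPM in set 3. In DMSO cells CDK1 had 177 and 137 CPM in set 1, against 279.9 and 198 CPM in set 3. CDK1 was lower in set 1 in all 4 groups, with overlap between groups (log2 fold change -0.57, SE 0.066, adjusted p = 3.16e-05). The topoisomerase TOP2A fell by 0.56 (SE 0.082, adjusted p = 0.000347), the spindle motor KIF11 by 0.49 (SE 0.073) and the spindle protein NUSAP1 by 0.40 (SE 0.073). SPC24, a kinetochore protein and one of the 12 largest falls, was at 19.7 to 41.5 CPM in set 1 and 36.5 to 69.3 CPM in set 3 (log2 fold change -0.84, SE 0.071, adjusted p = 1.1e-06). PLK1, NEK2, CCNB1, AURKA and BUB1 were among the 10 members that did not pass, as was MKI67, the proliferation marker Ki-67 (log2 fold change -0.29, SE 0.097, adjusted p = 0.0553).

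In the S phase list, the ribonucleotide reductase subunit RRM2 was lower in each group. In EPZ5676 cells RRM2 had 316 and 328 CPM (ALDH1+ and ALDH1-) in set 1, against 603 and 535 CPM in set 3. In DMSO cells RRM2 had 659 and 458 CPM in set 1, against 768 and 658 CPM in set 3. The EPZ5676 libraries of set 1 were below all others, and the DMSO libraries overlapped between sets (log2 fold change -0.59, SE 0.085, adjusted p = 0.000264). The thymidylate synthase TYMS fell by 0.50 (SE 0.062, adjusted p = 8.05e-05) and the replication factor GINS1 by 0.50 (SE 0.065). PCNA, RRM1, CDC6, CDT1, E2F1 and FEN1 were among the other called members, whereas the helicase subunits of the MCM family did not pass. CDKN2C, the CDK inhibitor p18, also fell, by 0.72 (SE 0.076), as did the histone gene H4C3, by 1.14 (SE 0.12). H4C3 belongs to a family of near-identical copies, so its counts are uncertain. In bulk RNA, fewer cycling cells and less RNA per cycling cell cannot be told apart.

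The medians of both lists were unequal across groups. The S phase median was -0.35 in EPZ5676 ALDH1+ and -0.43 in EPZ5676 ALDH1-, against -0.075 in DMSO ALDH1+ and -0.14 in DMSO ALDH1-. The G2/M median was -0.34 in EPZ5676 ALDH1+, -0.41 in DMSO ALDH1+ and -0.34 in DMSO ALDH1-, but 0.016 in EPZ5676 ALDH1-. Of the 17 called S phase genes, 16 were called in EPZ5676 cells alone and 3 in DMSO cells alone. Of the 17 called G2/M genes these counts were 4 and 10. They stand beside 398 and 199 among all 1078 genes called lower. No member of either list passed the test of a difference between treatments or between populations. The S phase count was 7 without either EPZ5676 ALDH1- library and 11 without either EPZ5676 ALDH1+ library. The G2/M count was 10 without either DMSO ALDH1- library and 11 without either EPZ5676 ALDH1+ library.

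**Figure D4:**
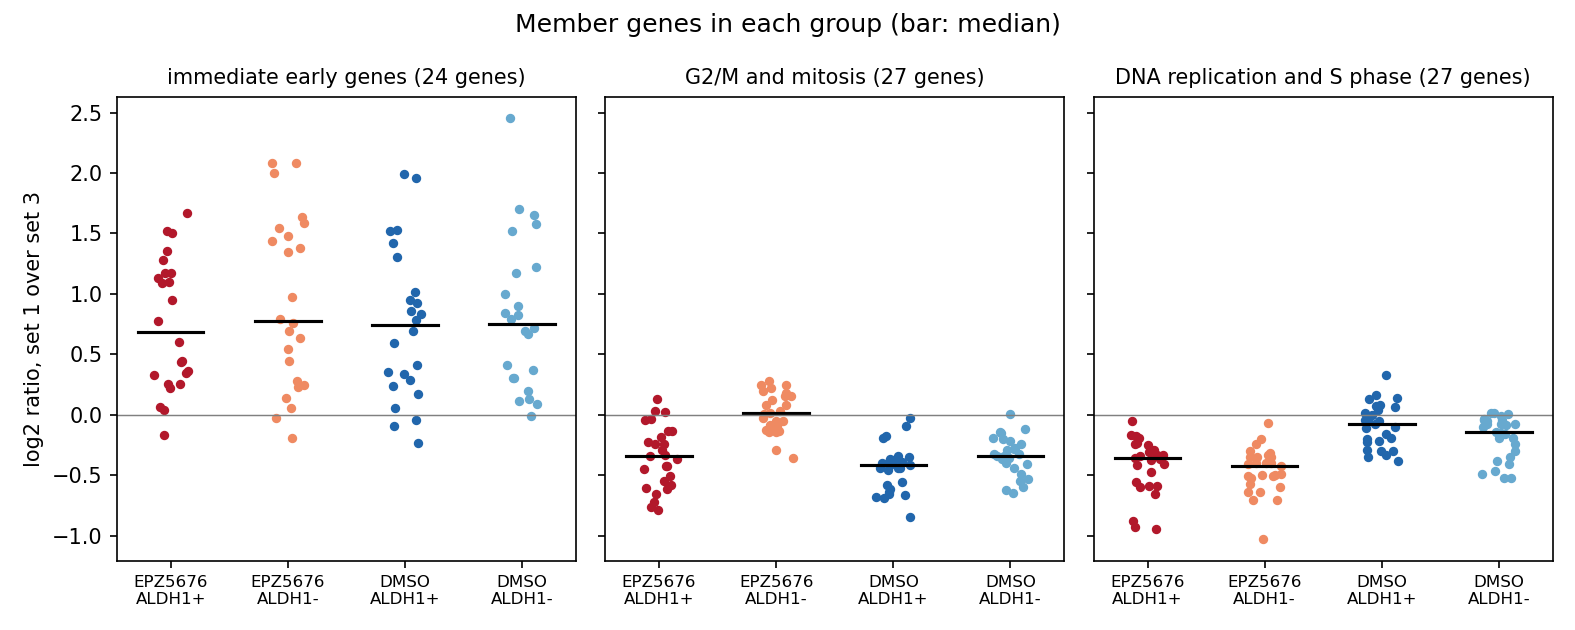
Log2 ratio of set 1 over set 3 (vertical axis) of each tested member of 3 gene lists in the 4 groups (horizontal axis), with the median as a bar. The immediate early medians lie between 0.69 and 0.78 in the 4 groups, while the G2/M median of EPZ5676 ALDH1- is 0.016 and the other 3 are -0.34 to -0.41.

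The other genes among the 12 largest falls came from no single list. ID1, an inhibitor of bHLH transcription factors and a direct target of BMP signalling, was the largest named fall. In EPZ5676 cells ID1 had 7.45 and 6.8 CPM (ALDH1+ and ALDH1-) in set 1, against 18.8 and 16.4 CPM in set 3. In DMSO cells ID1 had 11.1 and 9.34 CPM in set 1, against 35.7 and 21.3 CPM in set 3. All 4 libraries of set 1 were below all 4 of set 3 (log2 fold change -1.38, SE 0.095, adjusted p = 8.91e-08). The libraries of set 2 had 11.5 and 9.47 CPM of ID1 in EPZ5676 cells and 19.1 and 17.2 CPM in DMSO cells. ID3, the related inhibitor, was also called lower among 20 TGF-beta targets, of which 5 were higher and 3 lower. The ligand WNT6 was at 19.5 to 99.7 CPM in set 1 and 47.4 to 140.2 CPM in set 3 (log2 fold change -0.87, SE 0.11, adjusted p = 5.42e-05), and the transcription factor BCL11B at 5.29 to 15.2 CPM in set 1 and 11.4 to 23.7 CPM in set 3 (log2 fold change -0.99, SE 0.10, adjusted p = 1.05e-05). IER5L fell by 0.87, METTL7A by 1.10, MNS1 by 0.97, S100A5 by 0.89, ZFP14 by 0.87 and PLEKHS1 by 0.81. The antisense gene SLC16A4-AS1 fell by 1.37, and reads from its partner cannot be told apart, since the strand setting of the counting is not given.

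Of 22 hypoxia response genes, 9 were higher and 0 lower (median 0.12), led by the peptide hormone ADM at 20.3 to 43.6 CPM in set 1 and 9.77 to 26.4 CPM in set 3 (log2 fold change 0.91, SE 0.096, adjusted p = 1.33e-05). The stress-regulated NDRG1 rose by 0.55 (SE 0.071), the oxygen sensor EGLN3 by 0.48 (SE 0.066) and the glycolytic regulator PFKFB3 by 0.39 (SE 0.062). CA9, VEGFA and BNIP3 did not pass, and the count of 9 was 4 without either EPZ5676 ALDH1- library. Of 20 genes of the ATF4 amino acid response, 7 were higher and 2 lower. The secreted stanniocalcin STC2 rose by 0.78 (SE 0.10) and SESN2 by 0.57 (SE 0.078), while CEBPB fell by 0.57 (SE 0.072). That list's median was 0.56 in DMSO ALDH1- and -0.021 to 0.19 in the other groups, and 4 members were called higher without either DMSO ALDH1- library, against 10 without either DMSO ALDH1+ library.

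Among 17 circadian clock genes, 5 were higher and 5 lower. NPAS2, a partner of BMAL1, rose by 0.63 (SE 0.067) and the repressor NR1D1 by 0.58 (SE 0.078). PER3 fell by 0.47 (SE 0.073) and BHLHE41 by 0.46 (SE 0.069), and BMAL1, PER1 and BHLHE40 were the other rises and DBP, TEF and HLF the other falls. Without either EPZ5676 ALDH1- library, 2 were called higher and 3 lower. Of 15 heat shock genes, 2 were higher and 0 lower, or 3 lower with populations summed per treatment. The small chaperone CRYAB was at 37.7 to 189 CPM in set 1 and 22.8 to 79.8 CPM in set 3, higher in set 1 within each group (log2 fold change 0.92, SE 0.11, adjusted p = 3.35e-05). HSPA6, the other, had log2 fold change 1.52, SE 0.22, adjusted p = 0.000239, but an adjusted p of 0.0603 in DESeq2, and it shares sequence with other HSP70 genes. In ALDH1- cells HSPA6 had 8.34 (EPZ5676) and 18.6 CPM (DMSO) in set 1, against 3.18 and 4.21 CPM in set 3. In ALDH1+ cells it was near the floor, at 0.820 and 0.510 CPM in set 1, against 0.608 and 0.425 CPM in set 3. The ratio of set 1 over set 3 was thus larger in ALDH1- cells than at that floor. HSPA6 did not pass the test of a difference between populations (adjusted p = 0.9997 in edgeR).

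Epithelial identity genes also moved in both directions. Of 26 keratinocyte differentiation genes, 5 were higher and 4 lower, and of 15 basal and hemidesmosome genes, 5 were higher and 3 lower. In EPZ5676 cells the stress keratin KRT6A had 1554 and 1096 CPM (ALDH1+ and ALDH1-) in set 1, against 768 and 623 CPM in set 3. In DMSO cells the keratin had 333 and 299 CPM in set 1, against 199 and 185 CPM in set 3. KRT6A was higher in set 1 in every group (log2 fold change 0.82, SE 0.064, adjusted p = 5.08e-07), and so was S100P, by 0.90 (SE 0.13). The protease KLK6 was lower, at 153 to 248 CPM in set 1 and 238 to 368 CPM in set 3 (log2 fold change -0.68, SE 0.06, adjusted p = 1.73e-06), and the basal keratin KRT14 fell by 0.58 (SE 0.073). Keratins of 1 type share sequence, so counts of single copies such as KRT6A, KRT6B and KRT14 are uncertain. Without either EPZ5676 ALDH1- library, 2 of the keratinocyte genes were called lower. The ferritin heavy chain FTH1 was at 2498 to 3276 CPM in set 1 and 3589 to 4706 CPM in set 3, without overlap (log2 fold change -0.51, SE 0.072, adjusted p = 0.000245).

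The counts of the lists that follow stand beside 7.27% higher and 6.60% lower among all genes tested. Of 53 cytosolic ribosomal protein genes, 0 were higher and 1 lower (median -0.094), or 4 lower with populations summed per treatment. Of 36 mitochondrial ribosomal protein genes, edgeR called 0 higher and 0 lower (median -0.067), or 4 lower with populations summed. Oxidative phosphorylation had 0 higher and 3 lower of 33 (median -0.15), although the count was 12 lower when both populations were summed per treatment and 7 without either DMSO ALDH1- library, and 1 and 0 without either EPZ5676 ALDH1+ or EPZ5676 ALDH1- library. Of 25 cholesterol genes, 1 was higher and 5 lower (median 0.007), a larger share lower than among all genes tested. The number lower was 1 without either DMSO ALDH1- library and 3 without either EPZ5676 ALDH1+ library. Of 30 interferon-stimulated genes, 3 were higher and 1 lower (median -0.051). Each of those interferon calls, OAS1, ISG20, BST2 and SAMD9, was lost without either EPZ5676 ALDH1- library. The inhibitor's target and the main ALDH1 genes did not pass the test. DOT1L, the target of the inhibitor, was at 64.0 to 75.8 CPM in set 1 and 57.8 to 76.2 CPM in set 3 (log2 fold change 0.15, SE 0.069, adjusted p = 0.146). ALDH1A1 was at 12.8 to 33.3 CPM in set 1 and 11.5 to 38.3 CPM in set 3 (log2 fold change -0.09, SE 0.089, adjusted p = 0.541), and ALDH1A3 at 1371 to 1982 CPM in set 1 and 1374 to 1821 CPM in set 3 (log2 fold change 0.037, SE 0.061, adjusted p = 0.734).

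The shift was set beside the treatment difference in set 2, whose 4 libraries take no part in the comparison of sets 1 and 3. Of the 1188 genes higher in set 1, 960 (80.8%) were higher in EPZ5676 than in DMSO cells of set 2, with a median of 0.37 on the log2 scale. Of the 1078 genes lower in set 1, 218 (20.2%) were higher in EPZ5676 cells, with a median of -0.26. Over all genes tested, 49.6% were higher in EPZ5676 cells and the median was -0.002. The correlation of shift and treatment difference over the 16345 genes was 0.338 (Pearson) and 0.335 (Spearman). In EPZ5676 cells alone, 488 genes (2.99%) were called higher and 452 (2.77%) lower in set 1, 5.75% of the genes in all. In DMSO cells alone 190 (1.16%) were higher and 215 (1.32%) lower, 2.48% in all.

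The lists parted on this measure. NF-kB genes were higher in set 1 and higher with EPZ5676, since all 16 called members were higher in EPZ5676 cells of set 2 and the list's median treatment difference was 1.16. Of the 19 called immediate early genes, 12 were lower and 7 higher in EPZ5676 cells of set 2 (median over the list -0.145). FOSB and FOS, with rises of 1.85 and 1.44 in set 1, had treatment differences of -0.75 and -0.86 in set 2. The genes of S phase and of G2/M had median treatment differences of -0.30 and -0.43, in the direction of their shift. Interferon-stimulated genes had a median treatment difference of 0.91 beside a shift of -0.051, and cholesterol genes one of -0.58 beside a shift of 0.007.

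**Figure D5:**
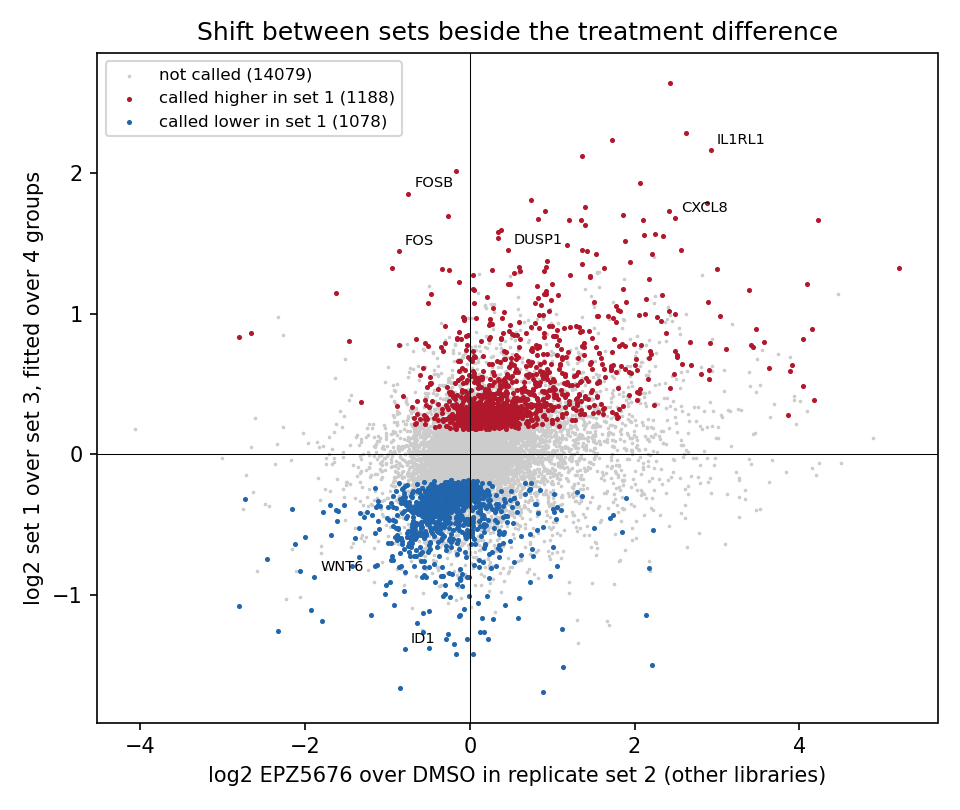
Each point is 1 of the 16345 genes tested, with its log2 difference of EPZ5676 over DMSO in set 2 (horizontal axis) and its fitted log2 change of set 1 over set 3 (vertical axis); colours mark the 1188 genes called higher and the 1078 called lower. FOSB and FOS lie left of 0 and IL1RL1 and CXCL8 right of 0, all 4 above the horizontal line.

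The 4 libraries of set 2 lay between the other sets for most called genes. Of the 1188 genes higher in set 1, the fitted value of set 2 was between the sets and nearer to set 1 for 660, between and nearer to set 3 for 380, above set 1 for 86 and below set 3 for 62. Of the 1078 lower genes it was between and nearer to set 1 for 556, between and nearer to set 3 for 410, below set 1 for 54 and above set 3 for 58. With set 3 as 0 and set 1 as 1, the median position of set 2 was 0.586 for the higher genes and 0.545 for the lower ones. In the fit of all 12 libraries, 395 genes (2.42%) were called between sets 1 and 2, of which 200 (1.22%) were higher and 195 (1.19%) lower in set 1. Between sets 2 and 3, 923 genes (5.65%) were called, 539 (3.30%) higher and 384 (2.35%) lower in set 2. For sets 1 and 3 the same fit called 3019 genes (18.5%), 1579 (9.66%) higher and 1440 (8.81%) lower in set 1. These comparisons share libraries with the comparison of sets 1 and 3. The called genes were chosen for a difference between sets 1 and 3, which by itself favours a place between them for set 2. The positions of set 2 therefore do not establish a graded order of the sets.

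The difference of the shift between EPZ5676 and DMSO cells was tested gene by gene, and 3 genes passed (0.0184%), all with a higher shift in EPZ5676 cells. In EPZ5676 cells the protease inhibitor SERPINB2 had 363 and 188 CPM (ALDH1+ and ALDH1-) in set 1, against 117 and 90.6 CPM in set 3. In DMSO cells the inhibitor had 13.1 and 8.46 CPM in set 1, against 15.5 and 11.3 CPM in set 3. SERPINB2 was thus higher in set 1 in EPZ5676 cells and slightly lower in DMSO cells (log2 difference 1.67, SE 0.18, adjusted p = 0.00425). Its fall in DMSO cells alone was not called (log2 fold change -0.32, adjusted p = 0.247 in edgeR). The DMSO ALDH1+ library of set 2 had 36.1 CPM of SERPINB2. For CXCL8 the shift was 2.21 in EPZ5676 cells and 0.97 in DMSO cells (log2 difference 1.24, SE 0.16, adjusted p = 0.0179). In EPZ5676 cells the transcriptional coregulator CITED4 had 72.4 and 69.6 CPM (ALDH1+ and ALDH1-) in set 1, against 59.6 and 57.1 CPM in set 3. In DMSO cells the coregulator had 63.0 and 50.9 CPM in set 1, against 101 and 71.0 CPM in set 3. The fitted shifts of CITED4 had opposite signs (log2 difference 0.87, SE 0.13, adjusted p = 0.0423). Its fall in DMSO cells alone was called (log2 fold change -0.58, adjusted p = 0.00332 in edgeR). Its rise in EPZ5676 cells alone was not (log2 fold change 0.28, adjusted p = 0.0838 in edgeR). At an unadjusted p below 0.05 there were 893 genes, and in the fit of all 12 libraries 0 of the 16345 passed, with 1147 at an unadjusted p below 0.05. For the difference between ALDH1+ and ALDH1- cells, edgeR called 0 genes (0.00%), with 283 at an unadjusted p below 0.05, and DESeq2 called 0, with 46.

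Called genes also differed in base composition. Transcripts of the genes higher in set 1 had a median GC content of 54.5%, those of the genes lower in set 1 46.8%, and those of all genes tested 50.2%. The rank correlation of shift and GC content over 15869 genes was 0.162. By group it was 0.134 in EPZ5676 ALDH1+, 0.01 in EPZ5676 ALDH1-, 0.105 in DMSO ALDH1+ and 0.251 in DMSO ALDH1-. With GC content as a smooth offset per library, a setting chosen after seeing the data, 2139 genes were called, 1861 of them shared with the fit without it, and the immediate early list had 20 genes higher and 0 lower. The G2/M list then had 12 genes lower.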

How the data were processed

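The deposited file is a gene by library table of raw read counts (57783 genes) that the authors had not normalized. The RNA kit kept strand, per the labels' protocols. STAR, Trim Galore and hg19 are listed in the submitters' processing notes. Which program counted reads, with which strand setting and gene models, is not stated in the labels or the file. Rows were matched to symbols by Ensembl identifier, and 39501 genes had one.

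Counts of the 8 libraries numbered 1 and 3 went into edgeR 4.0.16 (R 4.3.3): filterByExpr by group (16345 genes left), trimmed mean of M values (factors 0.973 to 1.018 over 12 libraries), a quasi-likelihood fit with group and set as terms, and Benjamini-Hochberg adjustment over all genes tested with a threshold of 0.05. This left 3 residual degrees of freedom, and the fit moderated the spread of each gene toward that of genes at large. The common biological coefficient of variation was 7.22%. The shift in each treatment and its differences between treatments and between populations came from a fit with those terms, and sets 1 and 2 and sets 2 and 3 from all 12 libraries. Principal components, variance shares and the treatment difference in set 2 were taken from log2 CPM with a prior count of 2. Libraries with the same number deviated together, as the positive correlations of all group ratios show. Within a set, libraries of 1 treatment may come from the same treated cells.

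Alternatives were RLE factors, total counts without factors, no filter, at least 1 CPM in 4 libraries, DESeq2 1.42.0, voom in limma 3.58.1, all 12 libraries, summed populations and leaving out each library. Named were DOT1L, ALDH1A1, ALDH1A3 and MYC, the 12 largest rises and 12 largest falls (called genes averaging 1 or more in log2 CPM whose 4 ratios had the same sign), and up to 4 members with the smallest p of each list, and the genes called in the test of a difference between treatments. Other list members are named as called or not passing, and some genes that the rule names are not reported here. The comparison, the lists and the rules were chosen with earlier results of these data known. Promoters are RefSeq windows on GRCh38.p14, matched by symbol; 11369 tested symbols had one. No coordinates of the hg19 files are given.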

Additional observations from a re-analysis of the deposited data

Results flagged for a closer look

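Each of these 3 genes shifted differently between sets 1 and 3 in EPZ5676 and in DMSO cells, by the test of the difference itself in edgeR. The log2 difference of the shift, EPZ5676 minus DMSO, was 1.67 for SERPINB2, 1.24 for CXCL8 and 0.87 for CITED4. SERPINB2 and CITED4 did not pass in the shift shared by all groups, at adjusted p of 0.053 and 0.447. In set 2, whose libraries were not used in that test, EPZ5676 cells were above DMSO cells by 3.49 for SERPINB2 and 2.49 for CXCL8 on the log2 scale, and the difference was -0.15 for CITED4. In the fit of all 12 libraries 0 genes passed this test, with 1147 at an unadjusted p below 0.05. Samples far from their group were not looked for, since each group has 3.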

How the results depend on the processing

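No paired analysis was possible because the replicate number, which would be its block, is what was compared. The fit compares the sets within groups, with group as a term. The shift shared by the 4 groups gave 1677 to 3019 called genes over other scalings, filters, tools and all 12 libraries, against 2266 in edgeR. Leaving out 1 library removes the ratio of its whole group, and the count was then 880 to 2589, with 433 to 1301 genes higher and 445 to 1288 lower. For the shift in EPZ5676 cells (940 genes), DESeq2 called 566, and leaving out a library gave 196 to 3082. For DMSO cells (405), the counts were 896 with no filter, 268 in DESeq2, 629 with all 12 libraries and 395 to 2663 without 1 library. The difference between treatments (3 genes) had 57 genes with no filter, 7 in DESeq2 and 0 with all 12 libraries, where 1147 had an unadjusted p below 0.05, and 3 to 794 without 1 library. The difference between populations (0) had 0 to 20. A treatment that loses 1 library rests on 1 pair, whose spread is assumed to be that of the other groups. ALDH1A3, which was not called, was -0.0136 with the GC offset, against 0.037. CITED4, also not called in the shared shift (-0.15), was -0.303 to 0.0309 without 1 library, and above 0 only without the DMSO ALDH1+ library of set 1 (0.0309) or of set 3 (0.0293). The causes were not tested. Depth limits genes of a few CPM, such as ARC and H4C3.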

Other observations

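Further lists held a few called genes each, to be read beside the 7.27% higher and 6.60% lower among all genes tested. Among mesenchymal genes, 3 of 8 were higher and 1 lower (median 0.28), with SNAI1, an inducer of the mesenchymal state, at 0.99 (SE 0.20, adjusted p = 0.00365 in edgeR). Among amino acid transporters, 3 of 11 were higher and 0 lower (median 0.19), or 5 higher in DESeq2 and with no filter, 8 with both populations summed per treatment, 5 without either DMSO ALDH1+ library and 1 without either DMSO ALDH1- library, with the arginine and lysine carrier SLC7A1 at 0.29 (SE 0.056). Among p53 targets, 3 of 16 were higher and 0 lower (median 0.027), and the exonuclease AEN stood at 0.30 (SE 0.062). Of the replication-dependent histones, 3 of 9 were higher and 1 lower (median 0.31), with H2BC21, H2BC5 and H2BC12 higher and H4C3 lower. H2BC5 had an adjusted p of 0.0496 in edgeR and lost its call in 10 of 17 settings, DESeq2 and voom among them, and DESeq2 called 1 histone higher. These histone genes have close copies, so their counts are uncertain. Among D cyclins and CDK inhibitors, 2 of 9 were higher and 4 lower (median -0.21), with CCND1 and CDKN1A higher and CDKN1B, CDKN2A, CDKN2C and CDKN2D lower. Without either EPZ5676 ALDH1+ library 0 of these were called higher and 2 lower. Without either EPZ5676 ALDH1+ library, 1 mesenchymal gene and 1 p53 target were called higher, and with all 12 libraries 2 p53 targets were called lower.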
